A study of Arabidopsis thaliana with 4 samples.

Results

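The response of wild-type Arabidopsis thaliana roots to aluminium (Al) was read from 2 of the 4 libraries of the series, 1 from Col roots given Al and 1 from Col control roots. Reads and RPKM, which are reads scaled to coding length and to the size of the library, were summed over the transcripts of each locus. Of 21531 loci listed in any library, 17068 reached an RPKM of at least 1 in either Col library, and these are the loci described here. The other 2 libraries come from luh-4, a mutant line of the co-repressor gene LEUNIG_HOMOLOG, and their ratios stand beside those of Col where a locus is described. They are another genotype and no replicate of Col.

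In acid solution Al dissolves as a cation that binds to pectin and to membranes at the root apex and stops root elongation. Arabidopsis roots answer by releasing malate and citrate, which chelate the metal, and by moving Al away from sensitive cells, under control of the zinc finger protein STOP1. Root hairs, wall loosening enzymes, secreted peroxidases and the enzymes that conjugate reactive metabolites are other parts of the root that are known to change under metal stress.

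All plants were Columbia (Col) wild type or luh-4 seedlings, grown for 6 d in nutrient solution at pH 5.5. About 500 seedlings were pooled per treatment and moved to solution at pH 4.2. The groups are Col Al (wild type, 25 µM AlCl3, time point label 4 h), Col control (wild type, no Al, time point label 0 h), luh-4 Al (mutant, 25 µM AlCl3, 4 h) and luh-4 control (mutant, no Al, 0 h), with 1 library each. The treatment text places both arms in solution for 4 h, whereas the labels of the controls give 0 h, so the arms may differ in time in solution as well as in Al, and these cannot be told apart. Col Al held 13.82 M reads assigned to transcripts and Col control held 13.70 M.

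With 1 library per group there is no replicate check, no test and no p-value, and each difference below is one between libraries. A locus is said to have risen or fallen where its RPKM ratio, with 0.1 RPKM added to both sides, was at least 2-fold and the 95% Clopper-Pearson interval of the read ratio excluded no change. Log2 ratios are of Col Al over Col control, with that interval in parentheses. The interval covers counting error only. Fewer cells of a type and less RNA per cell cannot be told apart in whole roots.

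By this rule 444 loci rose, 2.6% of those measured, and 496 fell, 2.91%, which is 5.51% in either direction. In luh-4 the same rule called 345 of 17117 loci up, 2.02%, and 531 down, 3.1%, which is 5.12% in all. Of the 444 Col risers 200 also rose in luh-4, and of the 496 fallers 180 also fell. Fewer of the called loci than not were thus called in both lines, though larger shares than the 2.02% and 3.1% of all loci. The median log2 ratio of all 17068 was 0.020, and the 5th and 95th percentiles were -0.83 and 0.78, so the bulk of the transcriptome lay inside the 2-fold limits. The loci that rose took 1.70% of the reads of Col Al and 0.533% of those of Col control, while the loci that fell took 0.762% and 2.1%. Calls were more frequent among weakly expressed loci. Below a mean of 5 RPKM 10.6% of 4414 loci were called, and at 100 RPKM or more 3.29% of 1946 were, 29 up and 35 down. Of the called loci, 12 had no read in Col control and 8 had none in Col Al.

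**Figure D1:**
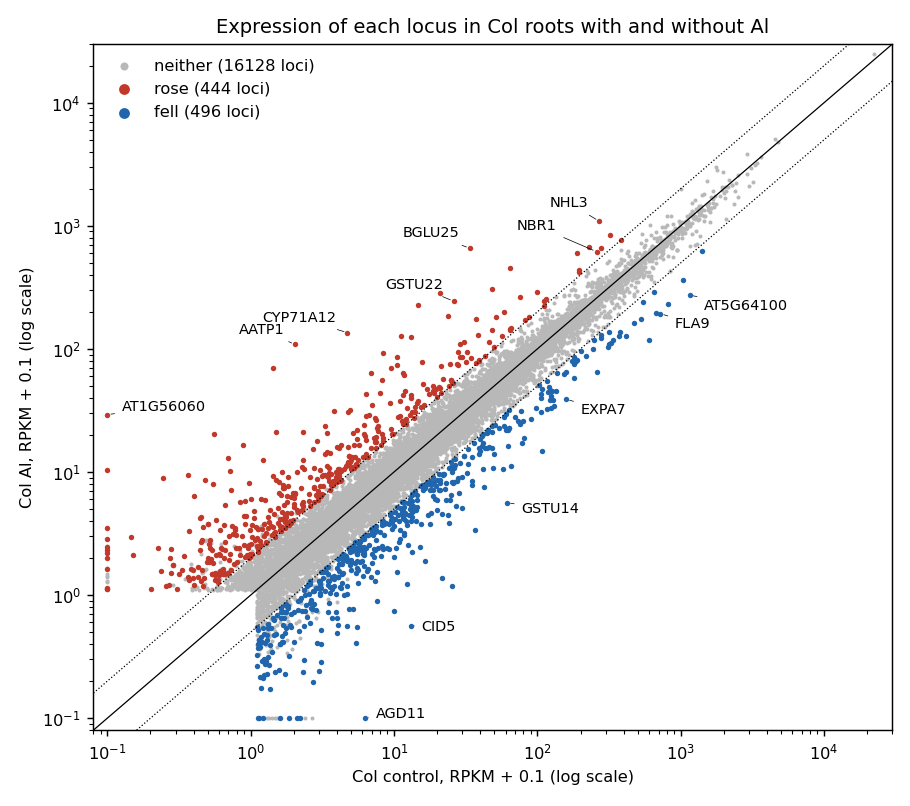
Each point is a locus with an RPKM of at least 1 in either Col library, with RPKM plus 0.1 in Col Al on the vertical axis and in Col control on the horizontal axis, both on log scales. The solid line marks equal levels and the dotted lines a 2-fold difference. The 444 red loci rose and the 496 blue loci fell, and the points at the left and lower edges had no read in one library.

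The loci that rose furthest, ranked by the end of the interval nearest no change among loci with a gene symbol and at least 5 RPKM, were of many functions. AATP1, an AAA-ATPase gene, had 2319 reads (109 RPKM) in Col Al and 41 reads (1.94 RPKM) in Col control. The cytochrome P450 gene CYP71A12, which makes indole-3-acetonitrile for camalexin and related indole defence compounds, had 2826 reads (135 RPKM) in Col Al and 96 reads (4.64 RPKM) in Col control. Both passed 100 RPKM with Al and stayed under 5 RPKM without it. BGLU25, annotated as a probable inactive beta-glucosidase, had 14485 reads (657 RPKM) in Col Al and 737 reads (33.7 RPKM) in Col control, a log2 ratio of 4.28 (4.18 to 4.39).

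Calcium handling was represented by a pump and a sensor. ACA13, annotated as a Ca2+-transporting ATPase, had 361 reads in Col Al and 16 in Col control, a ratio of 4.16 (3.76 to 5.31). CML37, a calmodulin-like calcium sensor, had 127 reads in Col Al and 6 in Col control. Its ratio was 4.23 in Col and 1.2 in luh-4, where the control library already held 36 reads. Of 90 calcium sensors in the deposited descriptions 5 rose, 5.56%, and 4 fell, 4.44%, against 2.6% and 2.91% of all loci. Another riser was AT3G47480, a probable calcium-binding protein, with 72 reads in Col Al and 2 in Col control.

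Transcription factors followed. The zinc finger gene ZAT7 had 62 reads in Col Al and 1 in Col control, and its neighbour by number, AT3G46080, another C2H2 zinc finger gene without a symbol, had 482 reads in Col Al and 9 in Col control and a ratio of 5.63 (4.79 to 6.87). NAC042, a NAC factor known as a regulator of camalexin synthesis, had 239 reads (20.9 RPKM) in Col Al and 16 reads (1.41 RPKM) in Col control. DREB2B, of the drought and heat response, had 289 reads in Col Al and 30 in Col control. In luh-4 the ratios of these 4 loci were 3.39, 5.53, 3.65 and 3.04.

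Enzymes and transporters made up most of the remainder. The tau class glutathione transferase GSTU22 had 2212 reads (244 RPKM) in Col Al and 234 reads (26.0 RPKM) in Col control, a ratio of 3.22 (3.03 to 3.43). GAD4, a glutamate decarboxylase that makes gamma-aminobutyrate, had 1305 reads (63.7 RPKM) in Col Al and 139 reads (6.85 RPKM) in Col control. ABCB11, an ABC transporter of the P-glycoprotein subfamily, was already expressed in the control and had 9725 reads in Col Al and 1240 in Col control. Its interval, 2.87 to 3.04 on the log2 scale, was the narrowest of the 15.

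CYSA, an inhibitor of cysteine proteases, had 484 reads in Col Al and 43 in Col control, the F-box gene PP2-B1 1204 reads in Col Al and 144 in Col control, and PRA1.B5, a prenylated Rab acceptor gene of vesicle traffic, 2659 reads in Col Al and 192 in Col control. The methyltransferase gene IGMT4 had 190 reads in Col Al and 17 in Col control and was covered over 50% of its coding length with Al and 33.8% without. All 15 passed the rule in the same direction in luh-4.

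Loci without a symbol that ranked as high, named after their values were seen, included a transporter and a secreted peptide. AT1G71140, of the MATE efflux family that carries organic molecules out of cells, had 409 reads (20.3 RPKM) in Col Al and 9 reads (0.451 RPKM) in Col control, a ratio of 5.21 (4.55 to 6.63). AT1G26380, of the FAD-binding berberine bridge enzyme family, had 287 reads in Col Al and 13 in Col control. AT1G56060, which RefSeq describes as cysteine-rich/transmembrane domain protein B, had 87 reads in Col Al and 0 in Col control. Taking 3 reads as the most that a count of 0 allows, and 87 as exact, it was at least 28.7-fold higher with Al. The counting interval, which allows for error in both counts, began at a log2 ratio of 4.52. The defensin-like gene AT3G05730 had 37 reads in Col Al and 0 in Col control, 12.2-fold higher by the same reckoning, with an interval from 3.24. In luh-4 it had 14 reads in luh-4 Al and 12 in luh-4 control, counts close to each other.

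The bases before the start of each gene were read from RefSeq assembly TAIR10.1, 250 bases per gene on the gene's strand, for 443 of the risers, 489 of the fallers and 16869 of all measured loci. The submitters' processing notes name the build TAIR10 and the deposited tables hold no coordinates, and 97.7% of the deposited coding lengths found in that annotation equalled one of its coding lengths. The 5 letters TTGAC, the core of the W-box that WRKY factors bind, stood on either strand in 59.4% of windows of risers, 47.2% of windows of fallers and 45.7% of all windows. The longer TTGACC, which contains it, was in 20.3%, 10.2% and 12.4%. CGCGTT, the rapid stress response element bound by CAMTA factors, was in 7.90%, 2.45% and 2.83%. TGACG, the core for TGA factors, which can overlap TTGAC, was in 23.0%, 17.2% and 19.0%.

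Windows of far risers are shown so that letters more frequent among risers than among all loci can be seen, first 2 with TTGAC or its complement GTCAA in capitals and then 2 with CGCGTT or AACGCG in capitals. They were chosen for holding these letters. AATP1 is chr5:16021917-16022166, minus strand, CYP71A12 chr2:13101372-13101621, minus strand, AT1G56060 chr1:20967181-20967430, minus strand, and AT2G32210 chr2:13677736-13677985, plus strand, all 5′ to 3′ on the gene's strand in TAIR10.1. None overlaps another annotated gene. In AT1G56060 the matches on the 2 strands overlap. AT1G56060 and AT2G32210 also held TTGAC or its complement, left in lower case. Among the 30 furthest risers, with and without a symbol, 23 held TTGAC on either strand, and among the 30 furthest fallers 12 did. CGCGTT was rare in both, in 2 of the 30 risers, both shown, and in 1 of the 30 fallers.
AATP1: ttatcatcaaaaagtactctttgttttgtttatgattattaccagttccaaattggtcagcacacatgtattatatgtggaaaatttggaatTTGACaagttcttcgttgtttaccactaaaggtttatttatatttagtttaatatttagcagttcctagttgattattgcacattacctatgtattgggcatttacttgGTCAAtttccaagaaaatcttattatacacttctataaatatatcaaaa
CYP71A12: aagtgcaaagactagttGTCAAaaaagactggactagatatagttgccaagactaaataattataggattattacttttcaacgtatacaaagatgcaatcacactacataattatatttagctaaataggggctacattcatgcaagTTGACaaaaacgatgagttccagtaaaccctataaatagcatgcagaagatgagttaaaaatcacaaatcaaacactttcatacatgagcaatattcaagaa
AT1G56060: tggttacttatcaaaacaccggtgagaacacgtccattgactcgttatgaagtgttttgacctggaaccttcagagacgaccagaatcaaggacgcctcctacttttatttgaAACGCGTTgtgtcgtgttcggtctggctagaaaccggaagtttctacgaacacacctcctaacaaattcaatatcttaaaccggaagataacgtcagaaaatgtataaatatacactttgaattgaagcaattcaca
AT2G32210: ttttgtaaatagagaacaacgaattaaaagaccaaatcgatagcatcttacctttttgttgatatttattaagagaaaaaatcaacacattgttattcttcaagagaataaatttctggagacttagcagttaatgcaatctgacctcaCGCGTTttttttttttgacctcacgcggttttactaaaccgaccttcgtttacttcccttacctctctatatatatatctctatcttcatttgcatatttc

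**Figure D2:**
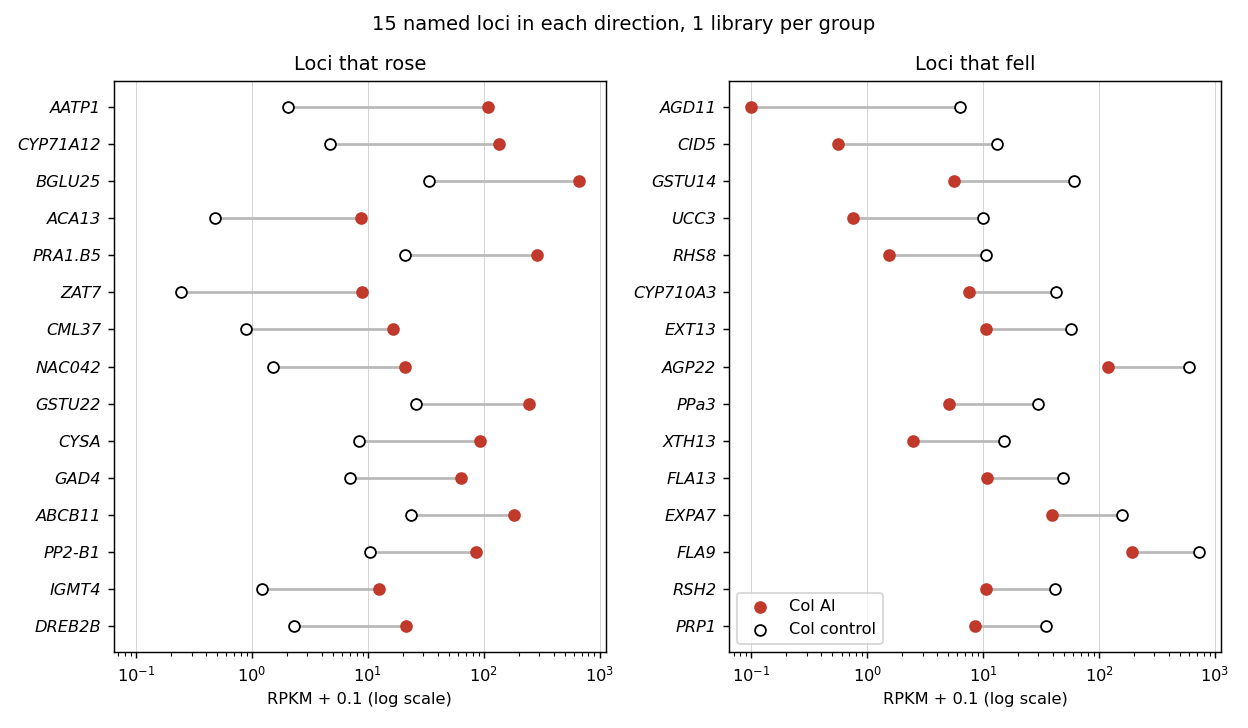
RPKM plus 0.1 on a log scale for the 15 loci with a symbol that rose furthest (left) and the 15 that fell furthest (right), ordered by the end of the counting interval nearest no change. Filled red points are Col Al and open points Col control, 1 library each. The red point lies to the right of the open one for every locus on the left and to its left for every locus on the right.

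The loci that fell furthest were mostly genes of the cell surface and of root hairs. AGD11, a symbol that RefSeq gives to AT3G07490 although the deposited description reads calmodulin-like protein, had 0 reads in Col Al and 39 in Col control. With 0 read as 3 reads it was 13.1-fold lower, and its interval ended at -3.35. CID5, a gene with a binding domain for poly(A)-binding protein, had 3 reads in Col Al and 83 in Col control, a ratio of -4.53 (-7.11 to -3.21). UCC3, a uclacyanin of the blue copper protein family, had 6 reads in Col Al and 90 in Col control. The glutathione transferase GSTU14 had 56 reads (5.54 RPKM) in Col Al and 614 reads (61.2 RPKM) in Col control, a ratio of -3.44 (-3.89 to -3.07), opposite in direction to GSTU22.

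Wall proteins formed the largest block of the 15. AGP22, an arabinogalactan protein, had 315 reads (119 RPKM) in Col Al and 1579 reads (600.4 RPKM) in Col control. The fasciclin-like arabinogalactan protein genes FLA9 and FLA13 had 193 RPKM in Col Al and 722 RPKM in Col control, and 10.7 RPKM in Col Al and 49.1 RPKM in Col control. The extensin-like gene EXT13 had 142 reads in Col Al and 774 in Col control, the proline-rich protein gene PRP1 116 reads in Col Al and 479 in Col control, and XTH13, a xyloglucan-remodelling enzyme, 28 reads in Col Al and 176 in Col control. The expansin EXPA7, which loosens walls of growing root hairs, had 424 reads (38.9 RPKM) in Col Al and 1714 reads (159 RPKM) in Col control, a ratio of -2.03 (-2.18 to -1.87).

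The remaining 4 were of mixed function. RHS8 and RSH2, both described as root hair specific genes, had 40 reads in Col Al and 286 in Col control, and 227 reads in Col Al and 898 in Col control. CYP710A3, of a cytochrome P450 family that desaturates sterols, had 152 reads in Col Al and 856 in Col control, and shares 18.6% of its 50-base words with another gene, and PPa3, a soluble pyrophosphatase, 45 reads in Col Al and 265 in Col control. In luh-4, 14 of the 15 passed the rule in the same direction. The exception was EXPA7, with a luh-4 ratio of -0.85 on 1114 reads in luh-4 Al and 2052 in luh-4 control.

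A further 3 loci without a symbol fell as far, and were also named after their values were seen. AT3G12900, an oxygenase of the 2-oxoglutarate and Fe(II)-dependent family, had 16 reads (1.08 RPKM) in Col Al and 370 reads (25.2 RPKM) in Col control. AT1G06120, a desaturase-like gene of fatty acid metabolism that shares 19.9% of its 50-base words with another gene, had 16 reads in Col Al and 267 in Col control, and the glyoxal oxidase-related gene AT1G19900 had 75 reads in Col Al and 829 in Col control. Their ratios in luh-4 were -5.11, -3.36 and -3.58, each past the rule.

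TGNNNNNCACG, a fixed form of the root hair element that RSL4 and related bHLH factors bind, was in 4.97% of windows of risers, 10.8% of windows of fallers and 5.5% of all. The form with 1 base fewer between its ends, TGNNNNCACG, was in 5.87%, 8.18% and 4.24%. These shares describe letters in a window and not binding. GCCGCC, of ethylene response factors, was in 3.39%, 1.23% and 1.94%, and CACGTG, the G-box, in 8.58%, 5.11% and 7.08%. GAGAC, the core of a sulfur-responsive element, was in 23%, 29.7% and 25.2%, and CTTGNNNNNCAAG, a mitochondrial dysfunction motif, in 1.81%, 0.409% and 0.510%.

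Windows of fallers are shown with either root hair form in capitals, again chosen for holding it. AGD11 is chr3:2390872-2391121, EXT13 chr5:13433901-13434150 and EXPA7 chr1:4276255-4276504, all on the plus strand and clear of other annotated genes. EXPA7 held both forms, and AGD11 and EXT13 the longer form. EXPA7 also held TTGAC or its complement, left in lower case. The windows of the risers AT1G56060 and AT2G32210 shown above held the shorter form. Among the 30 furthest fallers, with and without a symbol, 7 held the longer form, and among the 30 furthest risers 1 did. The shorter form did not follow this, being in 3 of the 30 fallers and 4 of the 30 risers.
AGD11: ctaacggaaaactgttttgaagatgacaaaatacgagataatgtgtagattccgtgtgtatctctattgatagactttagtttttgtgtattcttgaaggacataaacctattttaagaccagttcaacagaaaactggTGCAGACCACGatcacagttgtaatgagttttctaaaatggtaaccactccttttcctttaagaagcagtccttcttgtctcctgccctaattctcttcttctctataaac
EXT13: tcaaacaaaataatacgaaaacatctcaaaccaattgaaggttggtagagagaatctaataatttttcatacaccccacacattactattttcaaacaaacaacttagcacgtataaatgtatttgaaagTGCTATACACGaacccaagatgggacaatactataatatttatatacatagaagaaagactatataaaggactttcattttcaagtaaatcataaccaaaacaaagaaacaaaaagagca
EXPA7: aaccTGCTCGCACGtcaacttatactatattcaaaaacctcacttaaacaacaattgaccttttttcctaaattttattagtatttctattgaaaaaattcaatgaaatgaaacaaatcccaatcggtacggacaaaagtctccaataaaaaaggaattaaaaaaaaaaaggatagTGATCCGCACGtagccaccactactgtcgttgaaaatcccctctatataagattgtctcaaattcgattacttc

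In absolute terms other loci led. The largest gain was that of NHL3, a membrane protein of the NDR1/HIN1-like family known from bacterial defence, with 1091 RPKM in Col Al, against 269 RPKM in Col control. After it came BGLU25, and then AGP1, an arabinogalactan protein gene, with 842 RPKM in Col Al, against 321 RPKM in Col control. AGP1 was thus opposite in direction to AGP22 and the fasciclin-like genes. GSTF7 had 674 RPKM in Col Al, against 229 RPKM in Col control, and GSTU8 599.8 RPKM in Col Al, against 189 RPKM in Col control, both glutathione transferases. Next were AT5G16010, a steroid dehydrogenase family gene, with 458 RPKM in Col Al, against 64.8 RPKM in Col control, the chitinase gene AT2G43610 with 774 RPKM in Col Al, against 384 RPKM in Col control, and RCI2A, a small hydrophobic protein of the cold and salt response, with 656 RPKM in Col Al, against 276 RPKM in Col control. AT2G43610 stood at the limit of the rule, and its ratio of 1.01 in Col became 0.99 after scaling by TMM factors or centring on the median locus. In luh-4 AT2G43610 and RCI2A fell short of the rule, at 0.91 and 0.96.

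The largest loss was in AT5G64100, a class III peroxidase gene (peroxidase 69), with 273 RPKM in Col Al, against 1156 RPKM in Col control. AT4G15390, an acyltransferase of the HXXXD family, had 619.9 RPKM in Col Al, against 1416 RPKM in Col control. Peroxidase 45 (AT4G30170) had 362 RPKM in Col Al, against 1043 RPKM in Col control, and peroxidase 27 (AT3G01190) 232 RPKM in Col Al, against 812 RPKM in Col control. The tonoplast water channel gene TIP2;2 had 196 RPKM in Col Al, against 673 RPKM in Col control, and AGP14 289 RPKM in Col Al, against 651 RPKM in Col control. FLA9 and AGP22, given above, completed the 8. In luh-4 AT4G15390 and AT4G30170 fell short of the rule, at -0.77 and -0.90.

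Of 23 pathway lists, 13 had more members that rose than fell, 2 had more that fell, and 8 had equal numbers, 4 of them with none called. The lists, and 40 families taken from words in the deposited descriptions, were drawn up with earlier results of these libraries known. Their counts stand against 2.6% of all loci up and 2.91% down.

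**Figure D3:**
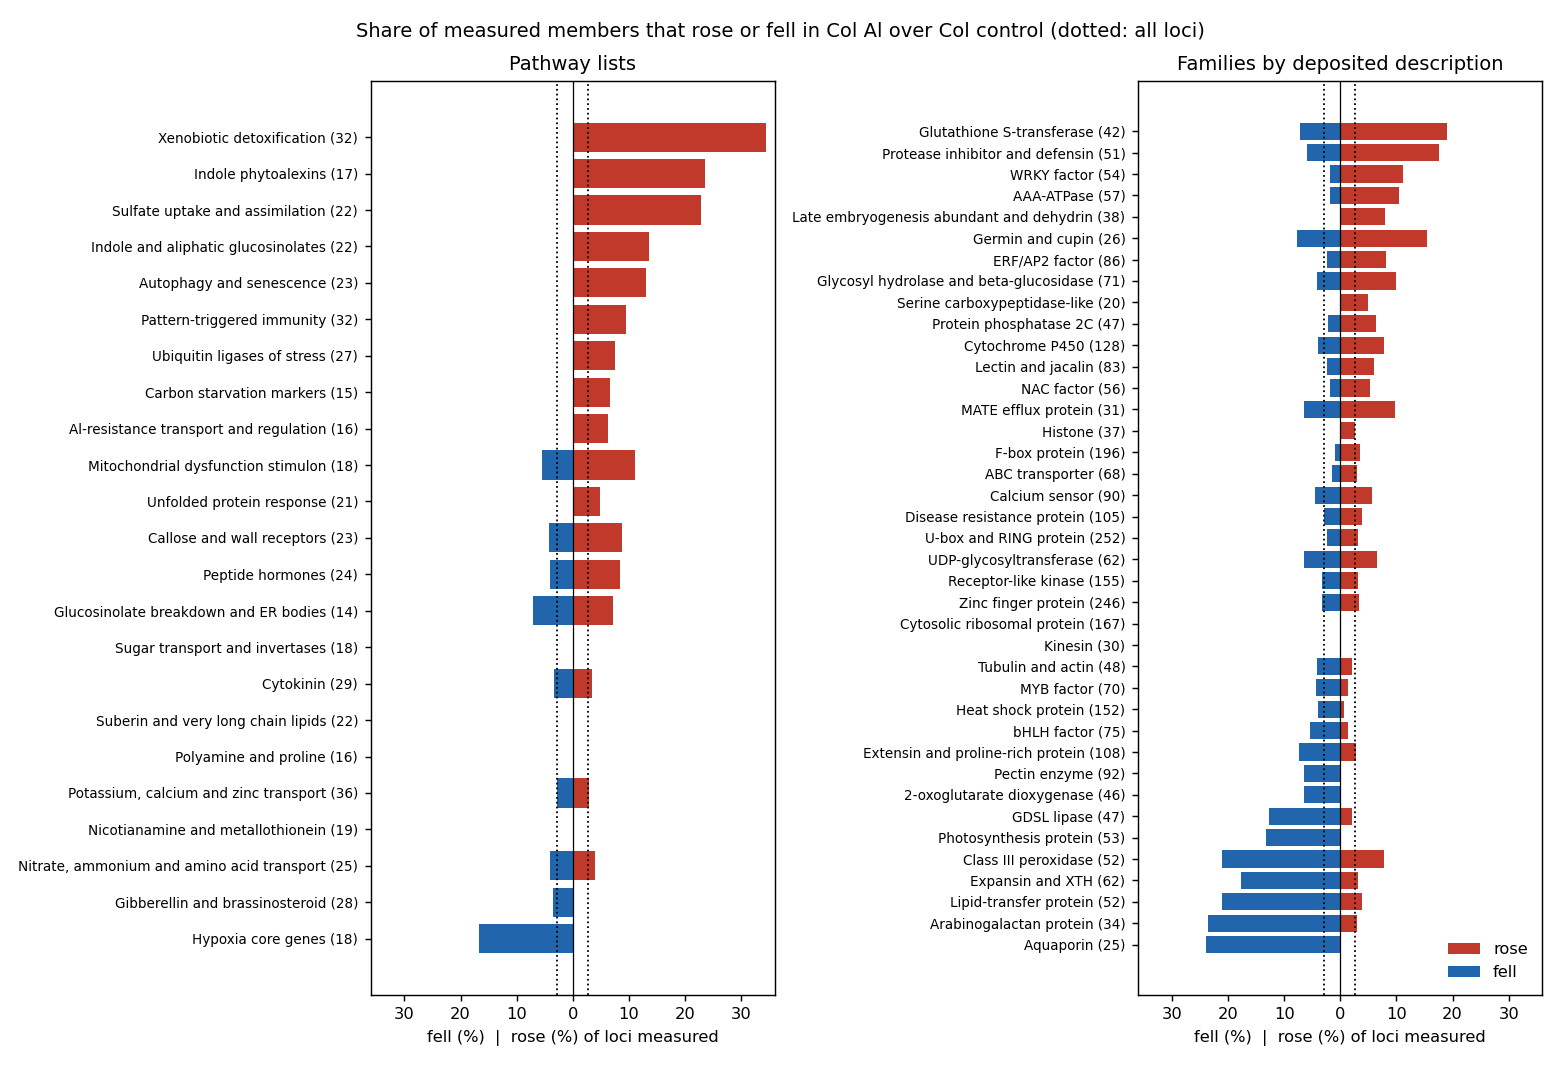
Percent of measured members that rose (red, to the right) or fell (blue, to the left) in Col Al over Col control, for 23 pathway lists and for the families taken from the deposited descriptions apart from uncharacterised proteins, with the number measured in parentheses. Dotted lines are the shares over all 17068 loci, 2.6% up and 2.91% down. Detoxification, indole phytoalexins and sulfate lead the lists upward, and aquaporins and arabinogalactan proteins lead the families downward.

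Organic acid release is the best known defence of the Arabidopsis root against Al. Of 16 measured genes of Al resistance 1 rose and 0 fell, with a median of 0.35 and 13 above 0. The malate channel gene ALMT1 had 9034 reads (441 RPKM) in Col Al and 5152 reads (254 RPKM) in Col control and a ratio of 0.80 (0.75 to 0.85), under the 2-fold limit. Its transcript was thus abundant in both libraries. ALS3, a transporter that moves Al away from the tip, had 549 reads in Col Al and 352 in Col control. The member past the rule was AT1G51340, a MATE efflux family gene, with 112 reads in Col Al and 53 in Col control. Its reads covered 17.3% of the coding length with Al and 17.7% without, and its ratio of 1.04 was 0.83 with a pseudocount of 1 RPKM, under the limit.

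Enzymes that oxidise and conjugate foreign or damaged molecules had the highest share of risers among the 23 lists. Of 32 measured detoxification genes 11 rose, 34.4% against 2.6% of all loci, and 0 fell, with a median of 0.71 and 31 of 32 above 0. The glutathione transferases GSTU12 and GSTF3 had 326 reads in Col Al and 49 in Col control, and 38 reads in Col Al and 7 in Col control. Other risers of the list, named after their values were seen, were more strongly expressed or belonged to other enzyme classes. GSTU25 and GSTU24 had 289 RPKM in Col Al and 99.8 RPKM in Col control, and 421 RPKM in Col Al and 194 RPKM in Col control. The cytochrome P450 CYP81D8 had 191 reads in Col Al and 68 in Col control, and the glucosyltransferases UGT73B4 and UGT75B1 had 194 reads in Col Al and 68 in Col control, and 231 reads in Col Al and 90 in Col control.

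The deposited descriptions call 42 loci glutathione transferases. Of these 8 rose, and GSTU14, GSTU28 and GSTU26 fell, so the family did not move as one. The 128 cytochrome P450 genes were likewise mixed, with 10 up and 5 down. In luh-4, 12 of the 32 detoxification genes rose and 0 fell. GSTF7 and UGT73B4 are among 37 called loci that share at least 10% of their 50-base words with another gene, and their values are uncertain as single genes.

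Indole defence chemistry showed a small number of large increases. Of 17 measured genes of indole phytoalexin synthesis 4 rose and 0 fell, with a median of 0.40. Besides CYP71A12 and NAC042, these were the regulators WRKY33, with 1855 reads (86.0 RPKM) in Col Al and 633 reads (29.6 RPKM) in Col control, and MYB51, with 316 reads (21.6 RPKM) in Col Al and 111 reads (7.65 RPKM) in Col control. The last camalexin enzyme, CYP71B15 (PAD3), had 51.5 RPKM in Col Al and 28.4 RPKM in Col control and a ratio of 0.86 (0.71 to 1.01), below the limit. Upstream, CYP79B2 and CYP79B3, which make indole-3-acetaldoxime, had ratios of -0.047 (-0.13 to 0.037) and -0.89 (-1.0 to -0.78). In luh-4 the WRKY33 and MYB51 ratios were 0.55 and 0.19, short of the rule.

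Glucosinolates are the sulfur-rich defence compounds of this plant family. Of 22 genes of their synthesis 3 rose, CYP81F2, IGMT1 and IGMT2, and the list median was -0.073. CYP81F2 hydroxylates the indole ring and had 745 reads (36.5 RPKM) in Col Al and 187 reads (9.25 RPKM) in Col control. The IGMT methyltransferases act after it. IGMT1, IGMT2, IGMT3 and IGMT4 lie side by side on chromosome 1, all 4 rose, and their ratios were 1.2, 1.53, 1.03 and 3.35. They share between 15.4% and 50.3% of their 50-base words with another gene. Of 14 measured genes of glucosinolate breakdown 1 rose and 1 fell, with a median of -0.42 and 2 above 0. In luh-4 their median was -0.65. The nitrile specifier NSP5 rose, with 199 RPKM in Col Al and 58.4 RPKM in Col control, and NSP3 fell, with 2.83 RPKM in Col Al and 6.03 RPKM in Col control.

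Sulfur genes that rose were mostly ones known as markers of low sulfur. Of 22 measured genes of sulfate uptake and assimilation 5 rose and 0 fell, with a median of 0.38 and 19 above 0. SDI1 and LSU1, markers of sulfur deficiency, had 264 reads in Col Al and 64 in Col control, and 86 reads in Col Al and 21 in Col control. BGLU30, a glucosidase raised in low sulfur, had 152 reads in Col Al and 36 in Col control, and GGCT2;1, which degrades glutathione, 50 reads in Col Al and 15 in Col control. The sulfate transporter SULTR2;1 had 1413 reads (50.3 RPKM) in Col Al and 517 reads (18.6 RPKM) in Col control. The root uptake carrier SULTR1;1 had a ratio of -0.39 (-0.66 to -0.13), and the 3 APS reductases APR1, APR2 and APR3 had ratios of 0.34, 0.81 and 0.31, under the limit.

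**Figure D4:**
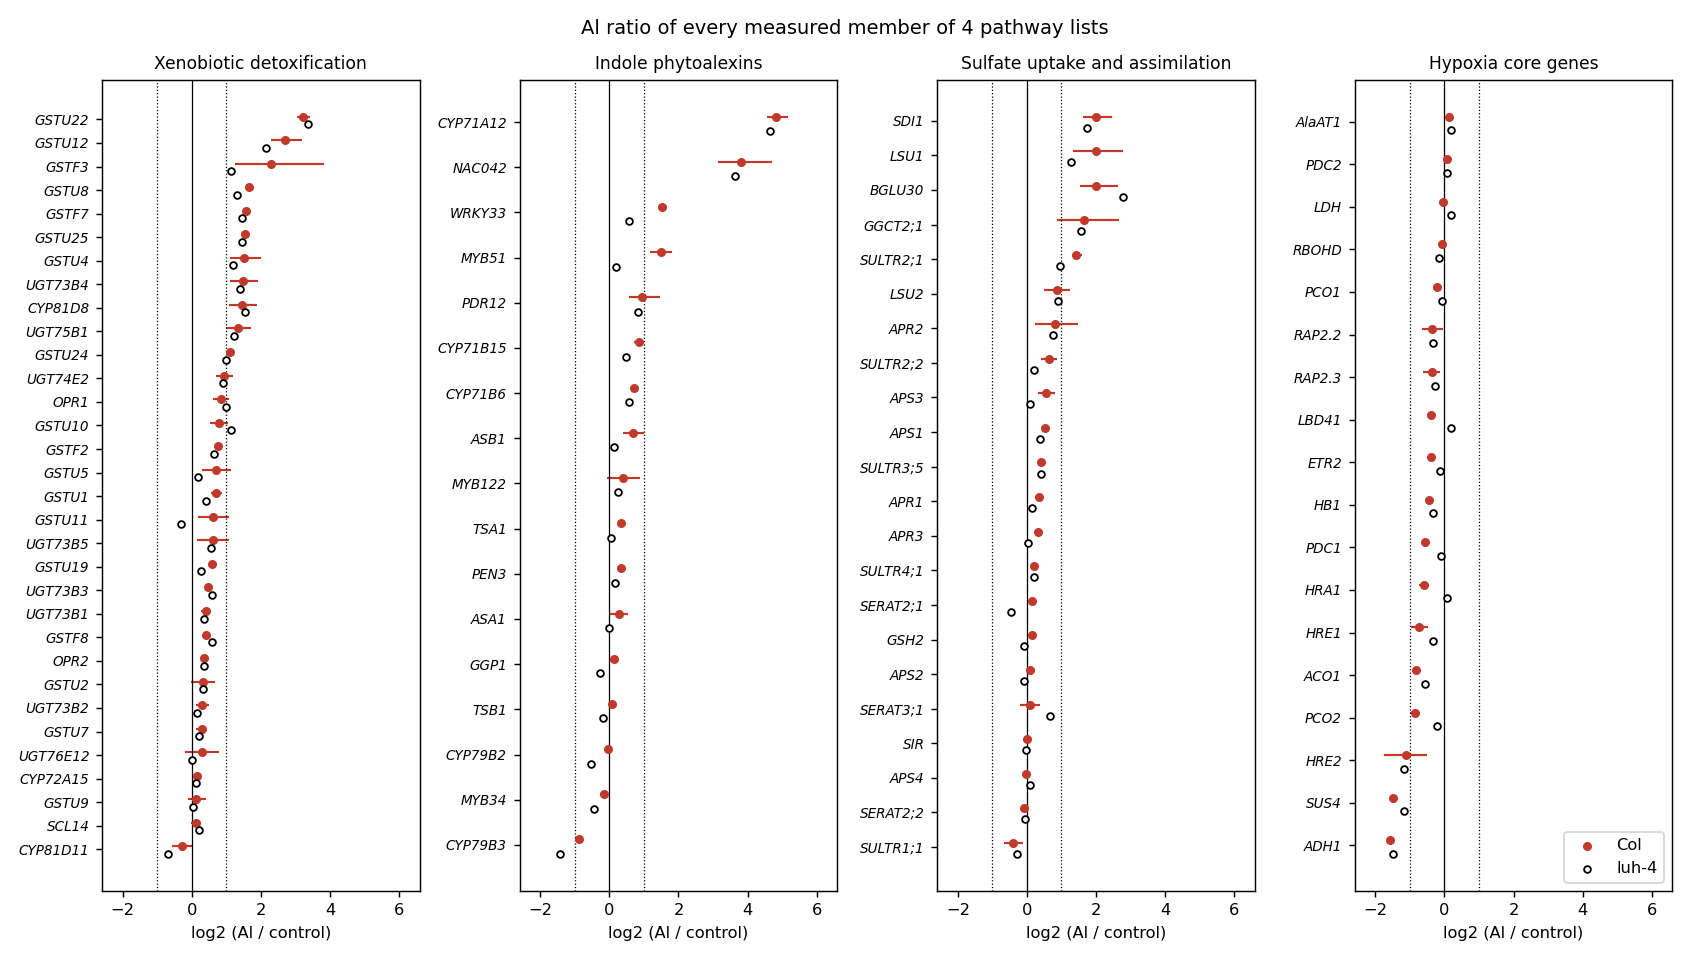
Log2 ratio of Al over control for every measured member of 4 pathway lists. Red points are Col with 95% counting intervals, open points luh-4, and dotted lines mark the 2-fold limits. Members of the first 3 lists lie mostly to the right of 0 and those of the hypoxia list mostly to its left.

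Immune signalling genes were called in small numbers. Of 32 measured genes of pattern-triggered immunity 3 rose, 9.38% against 2.6% of all loci, and 0 fell, with a median of 0.17. They were NHL10, with 663 reads in Col Al and 89 in Col control, WRKY33 and EXL1, which had 581 reads in Col Al and 238 in Col control and is also on the carbon starvation list. PROPEP1 and PROPEP3 encode precursors of Pep danger peptides and had 90 reads in Col Al and 29 in Col control, and 98 reads in Col Al and 46 in Col control. In luh-4 both were below 0, at -0.67 and -0.22. The third of 24 peptide genes to pass, RTFL17, fell and had 10 reads in Col Al and 23 in Col control. Of 23 genes of callose and wall receptors 2 rose and 1 fell. The wall-associated kinase WAK4 had 364 reads in Col Al and 146 in Col control, PDLP1, a protein of plasmodesmata, 124 reads in Col Al and 48 in Col control, and the receptor kinase ERU, which acts in tip growth, 137 reads in Col Al and 373 in Col control.

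Among transcription factor families, 6 of 54 WRKY genes rose, 11.1%, and 1 fell, and 7 of 86 ERF/AP2 genes rose, 8.14%, and 2 fell. WRKY70 had 122 reads in Col Al and 19 in Col control and WRKY30 25 reads in Col Al and 3 in Col control. DREB2C had 644 reads in Col Al and 167 in Col control. Among other factors 1 of 70 MYB genes rose, 1.43%, and 3 fell, 4.29%, against 2.6% and 2.91% of all loci. Of 75 bHLH genes 1 rose, 1.33%, and 4 fell, 5.33%. One of those 4 was RSL4, the master regulator of root hair growth, with 24 reads in Col Al and 58 in Col control. RAP2.11, an ERF factor of the low potassium response, fell and had 146 reads in Col Al and 518 in Col control.

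Quality control of proteins and organelles was marked by single genes. Of 23 autophagy and senescence genes 3 rose and 0 fell. NBR1, the receptor of selective autophagy, had 18021 reads (617 RPKM) in Col Al and 7489 reads (259 RPKM) in Col control, a ratio of 1.25 (1.22 to 1.29) and 1.26 in luh-4. ATG8D, one of the small proteins that NBR1 binds, had 377 reads in Col Al and 138 in Col control, and NAC087, a regulator of cell death in the root cap, 149 reads in Col Al and 37 in Col control. Of 21 genes of the unfolded protein response BZIP60 rose, with 1827 reads (149 RPKM) in Col Al and 799 reads (65.7 RPKM) in Col control, while the chaperone genes BIP1 and CNX1 had ratios of 0.14 and -0.24.

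Of 18 genes of the mitochondrial dysfunction response 2 rose and 1 fell, with a median of 0.56 and 15 above 0. AATP1 was one and BCS1, an AAA-ATPase of the outer membrane, the other, with 1238 reads in Col Al and 376 in Col control. The alternative oxidase gene AOX1A, the usual marker of this response, had 74.8 RPKM in Col Al and 44.4 RPKM in Col control, a ratio of 0.75 (0.61 to 0.89). HSP23.6, a small mitochondrial heat shock protein, fell and had 12 reads in Col Al and 37 in Col control. BCS1 had a ratio of -0.0075 in luh-4.

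Small secreted defence proteins moved in both directions. Of 51 protease inhibitors and defensins 9 rose and 3 fell, and their median was 0.0082. Besides CYSA, PDF2.1 had 57 reads in Col Al and 9 in Col control and AT1G34047, a defensin-like protein, 24 reads in Col Al and 5 in Col control. The defensin-like genes AT4G22217 and AT4G22214 fell, with 9 reads in Col Al and 45 in Col control, and 9 reads in Col Al and 33 in Col control.

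Of 71 glycosyl hydrolases and beta-glucosidases 7 rose, 9.86% against 2.6% of all loci, and 3 fell. BGLU32 had 64 reads in Col Al and 1 in Col control and BGLU27 61 reads in Col Al and 8 in Col control, while the beta-xylosidase BXL1, which acts on wall polysaccharides, fell and had 261 reads in Col Al and 825 in Col control. Of 196 F-box proteins 7 rose, 3.57% and so near the share of all loci, and 2 fell, with a median of 0.032. PP2-B11 had 460 reads in Col Al and 67 in Col control. Of 38 late embryogenesis abundant proteins 3 rose, 7.89%, and 0 fell, with a median of -0.034, the furthest being LEA4-5 with 67 reads in Col Al and 4 in Col control.

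Of 152 chaperones and heat shock proteins 6 fell, 3.95% and so near the 2.91% of all loci, and 1 rose, with a median of 0.055 and 89 above 0. The faller furthest from 0, HSP17.6A, had 106 reads in Col Al and 399 in Col control. Of 92 pectin enzymes 6 fell, 6.52%, and 0 rose, the pectinesterase AT5G04960 among them with 903 reads in Col Al and 2824 in Col control. Of 47 GDSL lipases 6 fell, 12.8%, and 1 rose, and AT1G33811 had 2 reads in Col Al and 25 in Col control.

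Among ubiquitin ligases of stress 2 of 27 rose, PUB21 and PP2-B13, with 20 reads in Col Al and 3 in Col control, and 39 reads in Col Al and 8 in Col control. Neither reached 5 RPKM.

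Families of the root surface held many of the fallers. Class III peroxidases cross-link or loosen walls with hydrogen peroxide. Of 52 found by words in the deposited descriptions 11 fell, 21.2% against 2.91% of all loci, and 4 rose. Members described in other words are not counted. Peroxidases 69, 70 and 71 lie side by side on chromosome 5 and all fell. Peroxidase 71 (AT5G64120) had 876 reads in Col Al and 3509 in Col control. Peroxidase 56 (AT5G15180) had 50 reads in Col Al and 207 in Col control. The risers included peroxidase 49 (AT4G36430), with 2480 reads in Col Al and 701 in Col control, and peroxidase 5 (AT1G14550), with 1267 reads in Col Al and 425 in Col control. The median of the 52 was -0.039 and 22 were above 0.

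Of 34 arabinogalactan proteins 8 fell and 1 rose, with a median of -0.36 and 6 above 0. Besides AGP22, FLA13 and FLA9, FLA6 and AGP41 fell on few reads, with 2 reads in Col Al and 23 in Col control, and 3 reads in Col Al and 32 in Col control. Of 52 lipid-transfer proteins 11 fell and 2 rose. AT5G46900 had 78 reads in Col Al and 567 in Col control, AT4G22666 29 reads in Col Al and 158 in Col control, and AT4G12520 206 reads in Col Al and 689 in Col control. AT5G46900 and AT4G12520 share 40.9% and 94.4% of their 50-base words with another gene. Of 62 expansins and xyloglucan enzymes 11 fell and 2 rose, and 1 of the 2, XTH24, did not pass after TMM scaling or centring.

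Of 25 aquaporins, the water channels of root membranes, 6 fell and 0 rose, with a median of -0.55 and 2 above 0. The tonoplast channels had 127 RPKM in Col Al and 417 RPKM in Col control for DELTA-TIP, 103 RPKM in Col Al and 312 RPKM in Col control for TIP4;1, and 8.07 RPKM in Col Al and 22.9 RPKM in Col control for TIP2;3. In the plasma membrane PIP2;4 had 41.3 RPKM in Col Al and 125 RPKM in Col control. NLM1 (aquaporin NIP1-1), a channel of the nodulin-26 group that also passes metalloids, had 32.4 RPKM in Col Al and 116 RPKM in Col control. The same 6 loci had luh-4 ratios of -1.72, -1.72, -1.13, -2.12, -1.50 and -1.95 for DELTA-TIP, TIP2;2, TIP4;1, TIP2;3, PIP2;4 and NLM1.

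Markers of root tissues, given beside these falls, differed between tissues. Of 6 root hair markers 3 fell and all 6 were below 0, from -2.03 to -0.60, with a summed level of 196 RPKM in Col Al and 464 RPKM in Col control. In luh-4 0 of the 6 passed, with a median of -0.29. COBL9, a wall protein of the hair, had 425 reads in Col Al and 1321 in Col control. Markers of endodermis, xylem, phloem, root cap, meristem, pericycle and stele numbered 25, and 0 rose or fell. Their ratios ran from -0.43 for the phloem factor APL to 0.28 for the cyclin CYCB1;1. The endodermal CASP1 had 423 RPKM in Col Al and 448 RPKM in Col control, and the stele transporter PHO1 300.4 RPKM in Col Al and 333 RPKM in Col control. These 25 are the markers that passed the RPKM minimum, and their lowest level was 4.02 RPKM. The root cap regulator SMB was listed in neither Col library, and the 2 cortex markers could not be placed. The part of root hairs in the falls of surface genes was not tested.

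**Figure D5:**
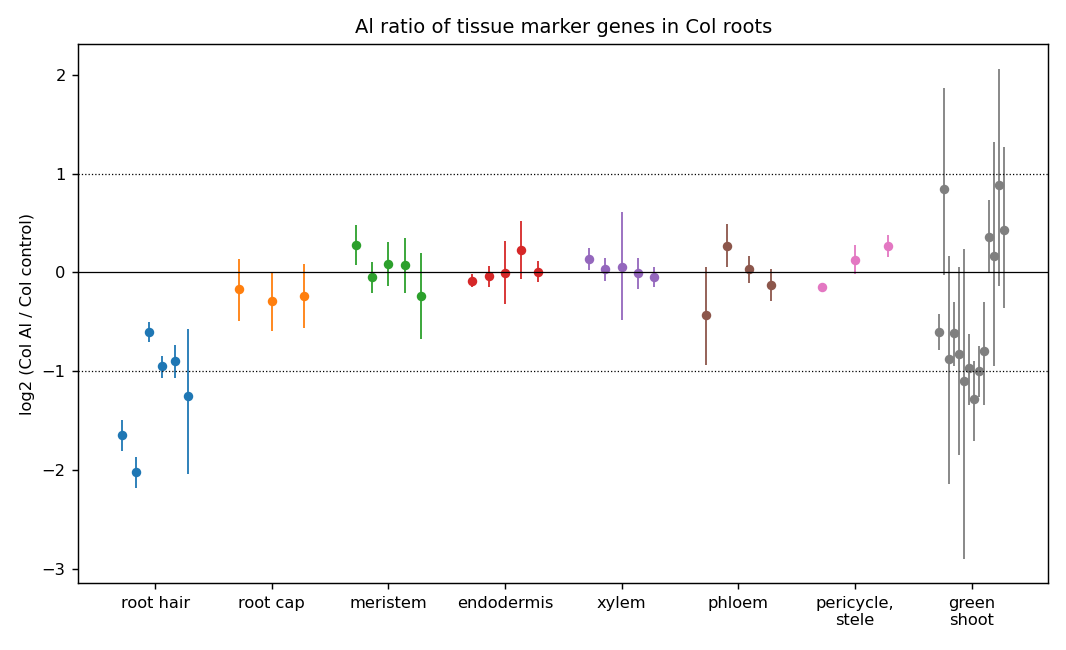
Log2 ratio of Col Al over Col control for marker genes of root tissues and of green shoot, with 95% counting intervals, 1 point per gene, in alphabetical order within a group. Dotted lines mark the 2-fold limits. Root hair markers all lie below 0, at -0.60 or lower, and the other root tissues lie between -0.43 and 0.28.

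Of 53 measured photosynthesis proteins 7 fell and 0 rose, with a median of -0.38 and a summed level of 547 RPKM in Col Al and 841 RPKM in Col control. Of 14 measured green shoot markers 1 fell and 0 rose. The summed level of those 14 was 120 RPKM in Col Al and 178 RPKM in Col control, single levels ran from 0.544 to 58.9 RPKM, and carbonic anhydrase CA1 had 0 reads in both. PSAD-1, of photosystem I, had 74 reads in Col Al and 180 in Col control. In luh-4, 26 of the 53 and 12 of the 14 fell. The part of green tissue in these ratios was not tested.

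Of 18 measured genes of the low-oxygen response 3 fell and 0 rose, 2 were above 0 and the median was -0.42. The fermentation enzyme ADH1 had 2771 reads (176 RPKM) in Col Al and 8186 reads (524 RPKM) in Col control, a ratio of -1.57 (-1.64 to -1.51). SUS4, a sucrose synthase, had 1512 reads (45.1 RPKM) in Col Al and 4181 reads (126 RPKM) in Col control, and the ERF factor HRE2 33 reads in Col Al and 71 in Col control. PDC1, pyruvate decarboxylase, had 271 RPKM in Col Al and 401 RPKM in Col control and a ratio of -0.56 (-0.61 to -0.52). In luh-4 ADH1, SUS4 and HRE2 also fell, with ratios of -1.49, -1.17 and -1.16.

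Nutrient transport changed at single genes. The nitrate transporter NRT2.4 fell, with 9 reads in Col Al and 45 in Col control, and the ammonium transporter AMT2;1 rose, with 260 reads in Col Al and 127 in Col control, as 2 of 25 nitrogen genes. The AMT2;1 ratio of 1.01 did not pass after TMM scaling or centring, or with a pseudocount of 1 RPKM. NRT2.4 stayed under 5 RPKM. The zinc transporter ZIP3 fell and had 80.3 RPKM in Col Al and 175 RPKM in Col control, as the 1 faller among 36 genes of potassium, calcium and zinc transport, in which ACA13 was the 1 riser.

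Hormone genes outside the defence pathways were mostly below the limit. Of 29 cytokinin genes LOG5, which activates the hormone, rose with 43 reads in Col Al and 17 in Col control, and the oxidase CKX7 fell with 16 reads in Col Al and 35 in Col control. Of 28 gibberellin and brassinosteroid genes the gibberellin oxidase GA20OX2 fell, with 50 reads in Col Al and 107 in Col control, and 8 were above 0. None of these 3 passed with a pseudocount of 1 RPKM. In luh-4 their ratios were 0.25, -0.071 and -0.52.

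No member passed the rule among 22 genes of suberin and very long chain lipids (median 0.085), 18 of sugar transport and invertases (0.052), 16 of polyamines and proline (0.071) and 19 of nicotianamine and metallothioneins (0.065). A single sugar gene fell after TMM scaling or centring. Among 167 cytosolic ribosomal proteins 0 passed, with ratios from -0.77 to 0.75, and among 30 kinesins 0 passed. The summed level of the ribosomal proteins was 100865 RPKM in Col Al and 107622 RPKM in Col control.

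The deposited Gene Ontology (GO) terms gave another grouping, with a biological process assigned to 59.3% of the loci. Their counts stand against 2.6% of all loci up and 2.91% down. The terms were picked from 344 for their high shares, so shares above those of all loci follow from the choice. Among process terms with 20 to 1000 measured loci, toxin metabolic process had the highest share of risers, with 9 of 39 up and 3 down. All of them have glutathione transferase symbols, so the words of the descriptions, with 8 risers, did not find every member. Response to biotic stimulus followed, with 8 of 51 up and 1 down, and developmental process, with 7 of 45 up and 2 down, 3 of the 7 being beta-glucosidases. Negative regulation of molecular function had 4 of 31 up and 0 down, which were the subtilase genes SBT3.5, AT4G10510, AT4G10530 and AT5G58840. Response to light intensity had 8 of 64 up, 12.5%, and 3 down, and cation transport 4 of 34 up, 11.8%, and 1 down. Hyperosmotic response had 7 of 51 up and 4 down, and response to carbohydrate stimulus 19 of 157 up and 4 down. ZAT7, AT3G46080, RHL41 and STZ are risers of both these terms and of response to light intensity. Among functions, methyltransferase activity had 5 of 38 up and 0 down, 4 of the 5 being the IGMT genes, and monooxygenase activity 4 of 35 up and 1 down. Among components, extracellular region part had 6 of 36 up and 1 down.

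Terms with a high share of fallers, picked in the same way, were of mixed kinds. Among all loci 2.91% fell. Water transmembrane transporter activity had 0 of 24 up and 6 down, the 6 aquaporins above. Antioxidant activity had 5 of 91 up and 12 down, among them the 11 peroxidase fallers found by description. Plant-type cell wall modification had 1 of 27 up and 4 down, which were EXPA2, EXPA7, EXPB1 and XTH33. The riser was XTH24. Tetrapyrrole binding had 0 of 23 up and 4 down, the light-harvesting genes LHB1B2, LHCB2.3 and LHCB4.2 and the photosystem gene NPQ4. Developmental cell growth had 1 of 43 up and 6 down, and embryo sac development 0 of 24 up and 3 down. Cellular metabolic process had 1 of 54 up and 5 down, with 4 of the photosynthesis genes among them, and response to inorganic substance 1 of 41 up and 4 down. Peptide transport had 0 of 36 up and 4 down, and lipid localization 3 of 60 up and 6 down. Among components, anchored to membrane had 3 of 83 up and 8 down.

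Neighbouring loci sometimes moved as a block. There were 9 runs of 3 or more consecutive measured loci called in the same direction, 3 of risers and 6 of fallers. Besides IGMT1 to IGMT4 and peroxidases 69 to 71, AT2G32190, AT2G32200 and AT2G32210 rose side by side on chromosome 2. RefSeq describes all 3 as cysteine-rich/transmembrane domain A-like proteins. They had 375 reads in Col Al and 38 in Col control, 13 reads in Col Al and 3 in Col control, and 168 reads in Col Al and 24 in Col control. Among the fallers, HRE2 lay beside AT2G47530 and AT2G47540, both of the pollen Ole e 1 and extensin family, with 91 reads in Col Al and 189 in Col control, and 247 reads in Col Al and 932 in Col control.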

How the data were processed

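RNA-seq was run on 4 root libraries, 1 per group. The authors deposited, per the file headers, 3 values per transcript: a read count, RPKM, and the percent of its length covered by reads. The submitters' processing notes name the build TAIR10, while an aligner or counter was not given in the sources used here. The lengths are coding lengths, which are nearly all multiples of 3. Libraries held 13.45 M to 13.82 M reads.

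Reads and RPKM were summed over the transcripts of each locus with pandas 2.3.3, and unlisted loci were given 0 reads. Log2 ratios used RPKM plus 0.1. Intervals are exact 95% Clopper-Pearson limits from scipy 1.17.1 on the reads, for counting error only. A count of 0 was read as at most 3 reads, and the fold bounds from it leave out the error of the other count. The size rule was tried on simulated reads that carry counting error only. Such reads hold no spread between replicate libraries, so the trial says nothing of that spread. TMM factors came from edgeR 4.0.16.

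Members and lists were chosen with earlier results of these data known. Of 716 names on lists 686 were placed. Named loci are the 15 furthest past the rule each way with a symbol and at least 5 RPKM, the 8 largest gains and losses in RPKM, and up to 4 called members per list each way, furthest from 0. The Al resistance genes ALMT1 and ALS3 and the loci AT1G51340 and AATP1 were named whatever their values. List members below the limit, and the loci said to be so, were named after their values were seen. GO terms were drawn from those with the highest share called in each direction, with 20 to 1000 loci, leaving out a term that shared most of its loci with one already taken. Not all of them are printed. Alternatives changed the pseudocount, the RPKM minimum, the scaling, the interval, the coverage, the size limit and the summing over transcripts.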

Additional observations from a re-analysis of the deposited data

Results flagged for a closer look

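In 10 loci the Al library differed from its control in one direction in Col and in the other in luh-4, each past the 2-fold rule. The difference was not tested, since each group is 1 library, and the direction in each line rests on 1 pair of libraries. They were 8 of the 444 Col risers and 2 of the 496 Col fallers. Among all loci measured in luh-4, 3.1% fell and 2.02% rose, so opposite calls were no more frequent than these shares. Of the 8 that rose in Col, 5 are known from rapid stress signalling.

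WRKY40, a repressor of the early defence response, had 141 reads in Col Al and 67 in Col control, and 88 reads in luh-4 Al and 341 in luh-4 control, with log2 ratios of 1.05 in Col and -1.91 in luh-4. ERF13, an ethylene response factor, had 62 reads in Col Al and 18 in Col control, and 40 reads in luh-4 Al and 148 in luh-4 control, with ratios of 1.72 and -1.83 in Col and luh-4. The luh-4 control held more reads of both than any of the other libraries.

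The jasmonate synthesis gene LOX4 had ratios of 1.55 in Col and -1.51 in luh-4, and JAZ7, a repressor of jasmonate responses, 1.28 and -1.61. LOX4 had 111 reads in Col Al and 35 in Col control, and 70 reads in luh-4 Al and 211 in luh-4 control. JAZ7 had 18 reads in Col Al and 7 in Col control, and its Col interval began at 0.023. In luh-4 JAZ7 had 15 reads in luh-4 Al and 48 in luh-4 control. The cold response factor CBF2 had 1.81 in Col, on 20 reads in Col Al and 5 in Col control. In luh-4 it had -1.15, on 11 reads in luh-4 Al and 26 in luh-4 control. The luh-4 control again held more reads of LOX4, JAZ7 and CBF2 than any other library. Among loci without a symbol, AT1G24600 had 1.41 and -1.12, AT3G60700 1.71 and -1.38, and AT4G28930 1.55 and -1.42. In Col they had few reads, 22 in Col Al and 8 in Col control, 12 and 3, and 28 and 9. In luh-4 control they had 27, 20 and 23, the most of any library for AT1G24600 and AT3G60700 and not for AT4G28930.

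AT1G55152 and AT1G78922 ran the other way. AT1G55152 had ratios of -1.0 in Col and 1.06 in luh-4, and AT1G78922 -1.61 in Col and 1.19 in luh-4. AT1G55152 had 14 reads in Col Al and 28 in Col control, and its Col interval ended at -0.039. AT1G78922 had 6 reads in Col Al and 20 in Col control. With 19 reads in luh-4 Al and 8 in luh-4 control, its luh-4 interval began at 0.020.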

How the results depend on the processing

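The counts of 444 risers and 496 fallers depended on the limits set. They were 274 and 312 with an RPKM minimum of 5, 1031 and 1083 with a limit of 1.5-fold, and 129 and 101 with a limit of 4-fold. After scaling by TMM factors 431 rose and 520 fell, and after centring on the median 432 and 518. In either case 4 lists, and not 2, had more members that fell than rose, because a sugar transport gene then passed and AMT2;1 did not. The other 54 recomputed totals stayed within 1.5 times the reported value. Of the 74 loci named by rank, by RPKM gain or loss, or whatever their values, 2 changed side. They were AT1G51340, at 0.83 with a pseudocount of 1 RPKM and left out by a coverage minimum of 50%, and AT2G43610, at 0.99 under both scalings. Other called list members were not counted in the 74. Those said above to change side include AMT2;1, XTH24, LOG5, CKX7 and GA20OX2. No paired analysis was possible because each group is 1 library and the labels carry no replicate numbers, and for the same reason no library could be left out. Depth limits the weakest loci, since at a coding length of 1 kb the 3 reads that a count of 0 allows amount to 0.217 RPKM in Col Al.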

Other observations

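A few loci were read in one Col library and not in the other. Of the 12 risers with no read in Col control, AT3G16670, of the pollen Ole e 1 and extensin family, had 22 reads in Col Al and 0 in Col control, at least 7.27-fold higher. Of the 8 fallers with no read in Col Al, the expansin EXPA2 had 0 reads in Col Al and 21 in Col control, 7.06-fold lower by the same reckoning. In luh-4 EXPA2 had 0 reads in luh-4 Al and 1 in luh-4 control.

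A run of leucine-rich repeat kinase genes on chromosome 3 fell in Col. AT3G46340, AT3G46370 and AT3G46400 had 7 reads in Col Al and 43 in Col control, 22 reads in Col Al and 84 in Col control, and 54 reads in Col Al and 230 in Col control. In luh-4 their ratios were 0.027, -0.68 and -1.52, and 1 of the 3 passed the rule. A second run on chromosome 3 held WRKY45, AT3G01980 and ACR6. AT3G01980, of the NAD(P)-binding Rossmann-fold family, had 9 reads in Col Al and 0 in Col control, 2.97-fold higher with 0 read as 3 reads. It had 2 reads in luh-4 Al and 2 in luh-4 control. These loci were chosen after their values were seen.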
